A study of Mus musculus with 10 samples.

Results

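The genes of the piRNA pathway followed here in sorted mouse oocytes were Piwil2, Piwil4, Mael, Tdrd1, Tdrd5, Tdrd9, Mov10l1, Asz1, Gtsf1 and Pld6. They were chosen by name as core members of the pathway, and they are 10 of the 55536 genes in the deposited count table. All 10 had enough reads to be tested, as did 20317 genes in all. The study sequenced RNA from germ cells of female mouse embryos at E14.5, around the age at which oocytes enter meiosis, to compare animals with and without Taf4b, a germ cell subunit of the general transcription factor TFIID. There were 4 libraries from Taf4b-deficient oocytes, which the labels call infertile, and 4 from Taf4b-heterozygous and 2 from Taf4b-wildtype oocytes, which the labels call fertile. All were labelled C57BL/6. All 3 genotypes came from matings of Taf4b-heterozygous mice that were homozygous for the Oct4-EGFP transgene (B6;129S4-Pou5f1tm2Jae/J), and live GFP+ cells were collected by flow sorting. Whether a library is 1 embryo or several is not in the labels. The p-values therefore refer to the spread among these libraries, which in each genotype come from more than 1 litter date. Part of that spread may be technical. The labels give litter dates but no meiotic stage. Deficient replicates 1 and 2 were dated 29 January 2019, replicate 3 was dated 1 March and replicate 4 was dated 7 March. Heterozygous replicates 1 to 3 were dated 7 March and replicate 4 was dated 29 January. Wildtype replicate 1 was dated 29 January and replicate 2 was dated 1 March. Litter dates were thus not balanced over the genotypes.

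PIWI-interacting RNAs, or piRNAs, are short RNAs of the germ line that guide PIWI proteins to transposon transcripts. Long precursor RNAs are cut at the surface of mitochondria, loaded into a PIWI protein in the cytoplasm and trimmed. In foetal male germ cells a nuclear branch then directs DNA methylation to transposons. Loss of the pathway sterilises male mice, whereas most female mutants stay fertile, and oocytes still express much of the machinery.

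Promoter sequences were available for 9 of the 10 genes as 300-base windows, from 250 bases before to 50 bases after the RefSeq start (GRCm38.p6). Of these, 5 held CACGTG, the E-box bound by MAX with MGA, on either strand. That is 55.6% of the 9 against 7.15% of the 32851 promoters of that length that were compared. CACGTG contains a CpG, and the 9 windows held 10 to 48 CpG against a median of 7 in the compared promoters. The shares were not matched for CpG, and its part in them was not tested. The first base of the match lay at -223 in Mael, -11 in Tdrd1, -165 and -95 in Tdrd9, -246 in Mov10l1 and -33 in Pld6, where negative positions count bases before the start. Shown here are Mael, Tdrd1 and Tdrd9, whose RNA rose with the meiotic index described further on, and Pld6, whose RNA varied least. Each is written 5′ to 3′ on the gene's strand, with the E-box in capitals.
Mael, chr1:166238695-166238994, minus strand: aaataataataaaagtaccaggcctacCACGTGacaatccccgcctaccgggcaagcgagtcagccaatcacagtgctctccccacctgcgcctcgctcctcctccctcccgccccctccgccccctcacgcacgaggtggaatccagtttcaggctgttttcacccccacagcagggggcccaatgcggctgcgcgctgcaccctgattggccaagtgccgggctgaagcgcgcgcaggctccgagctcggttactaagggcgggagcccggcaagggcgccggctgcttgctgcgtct
Tdrd1, chr19:56825959-56826258, plus strand: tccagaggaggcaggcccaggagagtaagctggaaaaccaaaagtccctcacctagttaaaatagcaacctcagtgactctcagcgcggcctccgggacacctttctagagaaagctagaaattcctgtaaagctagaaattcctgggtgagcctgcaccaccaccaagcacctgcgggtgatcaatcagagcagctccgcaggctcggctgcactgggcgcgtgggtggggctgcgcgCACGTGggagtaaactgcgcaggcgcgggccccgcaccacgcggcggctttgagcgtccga
Tdrd9, chr12:111971309-111971608, plus strand: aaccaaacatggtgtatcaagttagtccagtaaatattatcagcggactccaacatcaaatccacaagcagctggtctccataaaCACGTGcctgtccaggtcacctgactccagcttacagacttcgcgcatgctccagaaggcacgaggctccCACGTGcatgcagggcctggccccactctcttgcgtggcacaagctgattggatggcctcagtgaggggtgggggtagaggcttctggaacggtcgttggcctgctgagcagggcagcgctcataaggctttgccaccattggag
Pld6, chr11:59787608-59787907, minus strand: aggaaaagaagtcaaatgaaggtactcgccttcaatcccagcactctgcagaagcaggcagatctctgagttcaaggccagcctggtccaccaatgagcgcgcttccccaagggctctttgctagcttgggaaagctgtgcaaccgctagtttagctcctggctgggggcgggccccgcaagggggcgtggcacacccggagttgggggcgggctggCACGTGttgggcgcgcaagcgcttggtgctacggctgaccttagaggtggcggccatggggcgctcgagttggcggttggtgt

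Another 4 motifs were searched in the same windows. CCAAT, the NF-Y motif, was in 4 of the 9 windows (44.4% against 37.4%), GGGCGG, the Sp motif, in 4 of 9 (35.7% of all promoters) and CCTCAG, the core of the reported STRA8 motif, in 4 of 9 (26.8% of all). GCGGGAA, an E2F motif, was found in Tdrd5 alone (11.1% of the 9 against 4.6% of all promoters). Both strands were searched and no match overlapped one of another motif. Promoters on chr18 were left out of the compared set, in which a gene can have several entries. Each member was represented by its entry nearest the GENCODE start. Gtsf1 and Piwil4 held none of the 5 motifs. The Tdrd5 window lay 316 bases from the start of the GENCODE gene. These are matches of letters and were not tested as binding sites.

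Libraries held 28949924 to 44166320 assigned reads. Taf4b was read at 56.1 to 64.9 CPM (read counts scaled to library size) in the deficient libraries and at 144 to 234 CPM in the others, with no overlap, and fell by 1.71 on the log2 scale against heterozygous (SE 0.17, adjusted p = 0.0118, edgeR quasi-likelihood test with Benjamini-Hochberg adjustment over 20317 genes). The 7 germ cell markers summed to 4678 to 5920 CPM across libraries. The 8 supporting cell markers summed to 8.61 to 23.3 and the 8 stromal markers, of which 5 were tested, to 4.17 to 11.6. The 3 testis supporting markers, of which 2 were tested, summed to 0.157 to 1.93. The 9 blood and macrophage markers summed to 15.2 to 20.5 in deficient, 4.60 to 13.4 in heterozygous and 13.3 to 21.9 in wildtype libraries, and their part in any result was not tested. These sums include the globin genes Hbb-bs (0.0329 to 4.23 CPM) and Hba-a1 (0 to 6.80 CPM), both highest in wildtype replicate 1. The sums therefore do not compare macrophage genes alone. The 5 endothelial markers, of which 3 were tested, summed to 66.6 to 370, mostly Pecam1, which germ cells also express. Of the prospermatogonia markers Nanos2, Dnmt3l and Piwil4, only Piwil4 was high enough to test. Gm23935, annotated as a miRNA gene, was at 87.4 to 454 CPM in deficient replicates 2 and 4 and heterozygous replicate 3 and at 4146 to 5068 CPM in the other 7 libraries.

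Levels between genes were compared in TPM, which scales each transcript by its length. Mael was the most abundant of the 10 at 505 ± 145 TPM (SD, n = 10 libraries) and exceeded Mov10l1, the next, in 10 of 10 libraries. Mov10l1 followed at 210 ± 68.6, Piwil2 at 163 ± 22.6 and Asz1 at 122 ± 26.2 TPM. A middle group held Tdrd5 at 59.6 ± 14.4, Pld6 at 48.3 ± 4.46, Gtsf1 at 46.6 ± 19.9 and Tdrd1 at 31.9 ± 8.87 TPM. Tdrd9 at 8.88 ± 3.85 and Piwil4 at 5.36 ± 1.53 TPM, which act together in the nuclear branch in males, came last.

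The order was not resolved everywhere. Among the 9 pairs of neighbours only Asz1 and Tdrd5 had ranges that did not overlap, from 89.6 TPM upwards for Asz1 and up to 81.0 TPM for Tdrd5. Library by library, Pld6 exceeded Gtsf1 in 6 of 10 and Gtsf1 exceeded Tdrd1 in 8 of 10. The other neighbours kept their order in 9 or 10 of 10 libraries.

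**Figure D1:**
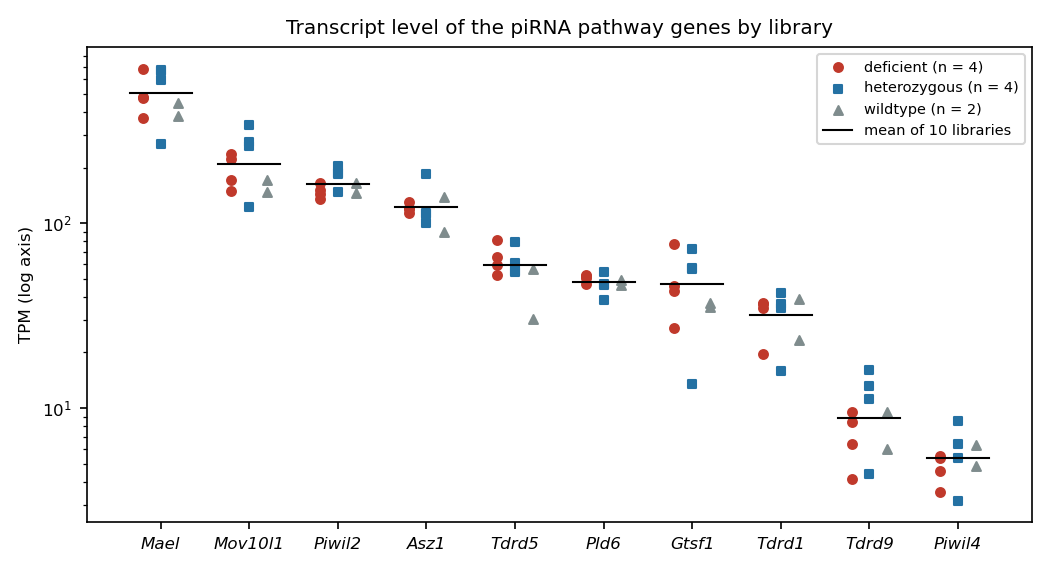
Each point is the TPM of a gene in 1 of the 10 libraries, on a log axis, with genes ordered by mean and coloured by genotype. Mael sits highest with a mean of 505 TPM and Piwil4 lowest with 5.36 TPM, and only Asz1 and Tdrd5 are neighbours without overlap.

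The 2 PIWI genes differed in both level and spread. Piwil2 encodes the cytoplasmic PIWI protein that is loaded first and slices transposon RNA. In replicate order, here and for the other genes, it was read at 324, 249, 272 and 289 CPM in the deficient, at 267, 347, 323 and 343 in the heterozygous, with 310.5 and 330.1 CPM in wildtype. The genotypes overlapped, and the highest library was 1.40 times the lowest, a spread of log2 values at the 17.3 percentile of 10881 genes of at least 5 CPM. Piwil4 encodes the nuclear PIWI protein that directs transposon methylation in foetal male germ cells. It was read at 7.53, 9.62, 6.11 and 9.09 CPM in deficient, at 5.53, 10.4, 13.1 and 8.63 in heterozygous, and at 8.32 and 10.9 CPM in wildtype libraries. Its lowest and highest libraries were both heterozygous, replicates 1 and 3. An antisense gene, Gm10706, shares exon bases with Piwil4, and the sources used here do not say whether counting used strand, so their reads cannot be told apart.

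Mael and Gtsf1 act beside the PIWI proteins. Mael encodes Maelstrom, which is needed for transposon repression, and was read at 399.9, 563, 322 and 372 CPM in deficient, at 230.2, 523, 490.1 and 455 in heterozygous, and at 330.0 and 349 CPM in wildtype libraries. Gtsf1 encodes a small zinc finger cofactor that stimulates slicing by PIWI proteins, and was read at 19.5, 33.5, 12.9 and 17.8 CPM in deficient, at 6.32, 26.4, 32.1 and 23.0 in heterozygous, and at 16.9 and 20.2 CPM in wildtype libraries. Both were lowest in heterozygous replicate 1 and highest in deficient replicate 2. Gtsf1 varied most of the 10 genes, 5.29 times between those libraries, a spread at the 92.5 percentile.

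The Tudor genes encode proteins that bind methylated arginines of PIWI proteins. Tdrd1, a scaffold of the granules between mitochondria, was read at 97.5, 97.7, 55.0 and 88.8 CPM in deficient, at 43.4, 104, 82.9 and 89.8 in heterozygous, and at 64.3 and 98.5 CPM in wildtype libraries. Tdrd9, an RNA helicase that partners Piwil4, was read at 19.2, 23.0, 10.4 and 15.2 CPM in deficient, at 10.9, 36.5, 24.8 and 30.4 in heterozygous, and at 15.2 and 22.8 CPM in wildtype libraries. In both genes deficient replicate 3 and heterozygous replicate 1 were the 2 lowest libraries and the genotypes overlapped. Tdrd5, needed to assemble piRNA granules, was read at 125, 110.4, 109.7 and 145 CPM in deficient, at 110.2, 97.1, 136 and 109.7 in heterozygous, and at 62.2 and 109.1 CPM in wildtype libraries. Its 4 deficient libraries were all above its 2 wildtype libraries, by a margin of under 1 CPM at the nearest pair. Tdrd5 shares exon bases with the antisense gene 4930518J20Rik, so it carries the same limit as Piwil4.

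The remaining 3 genes make piRNA precursors ready for loading. Mov10l1, an RNA helicase that feeds precursors into cutting, was read at 368, 399.8, 282 and 335 CPM in deficient, at 245, 545, 484 and 461 in heterozygous, and at 313 and 337 CPM in wildtype libraries. Asz1, a mitochondrial scaffold, was read at 105, 120.1, 116 and 102 CPM in deficient, at 94.8, 97.5, 152 and 96.2 in heterozygous, and at 86.2 and 121 CPM in wildtype libraries. Of the 4 heterozygous libraries 3 were above every deficient library for Mov10l1, whereas for Asz1 a single heterozygous library stood above the rest. Pld6, the mitochondrial nuclease that cuts precursors, was read at 36.5, 34.4, 38.2 and 35.2 CPM in deficient, at 31.9, 31.5, 35.1 and 32.9 in heterozygous, and at 35.7 and 32.6 CPM in wildtype libraries. Pld6 was the steadiest of the 10, with a highest library 1.21 times the lowest and a spread at the 1.22 percentile.

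**Figure D2:**
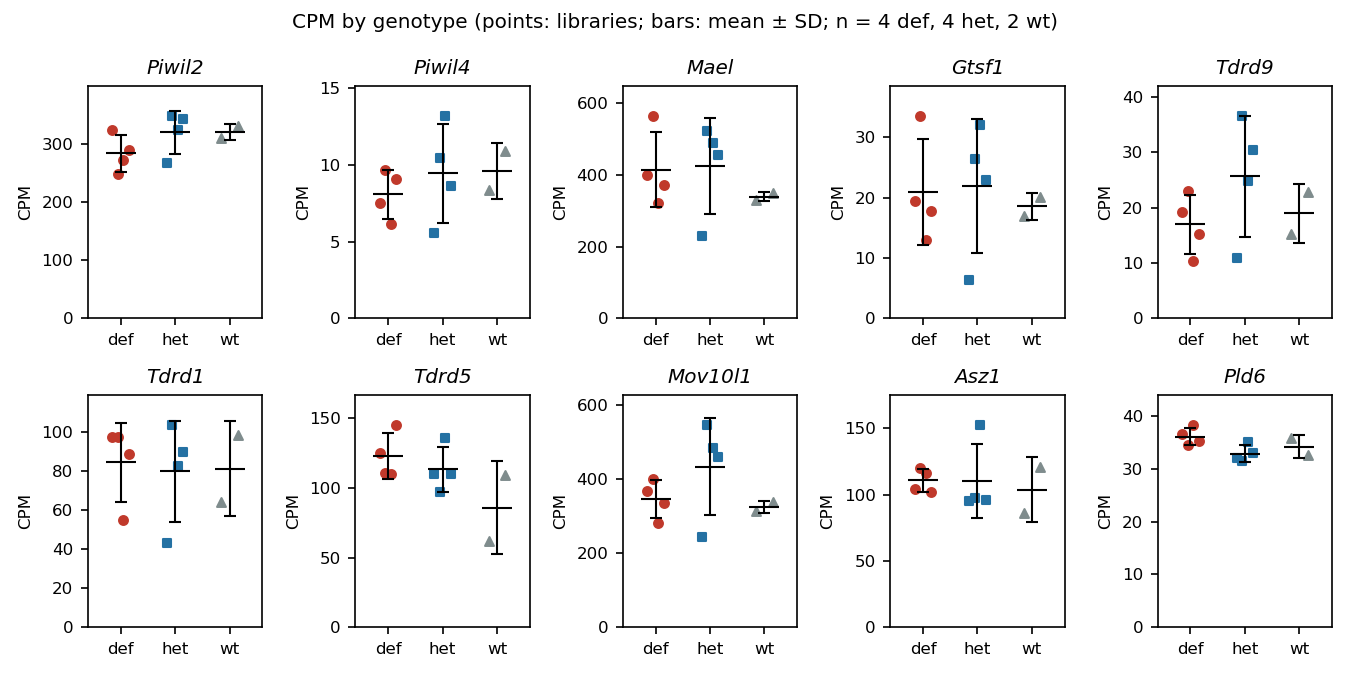
Each panel shows 1 gene, with a point for the CPM of each of the 10 libraries by genotype on an axis that starts at 0, and a line and bars for the group mean ± SD. Genotypes overlap in every panel except deficient against wildtype for Tdrd5, while Gtsf1 spans 6.32 to 33.5 CPM and Pld6 31.5 to 38.2 CPM.

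The first question was whether Taf4b deficiency changed the piRNA genes. No member was called between deficient and heterozygous libraries, where 0.0148% of all genes tested were called at an adjusted p under 0.05. By estimate 4 members were higher and 6 lower, with a median log2 difference of -0.05, the same as over all 20317 genes (-0.05). No member had groups that did not overlap, against 5.97% of all genes. At an unadjusted p under 0.05 there were 0 members and 2421 genes in the same edgeR test.

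The widest estimated difference was that of Tdrd9, at -0.60 (log2, SE 0.35, 95% interval -1.37 to 0.18, adjusted p = 0.498, edgeR quasi-likelihood test with Benjamini-Hochberg adjustment, as for every adjusted p of this comparison). Mov10l1 was at -0.33 (SE 0.22, interval -0.80 to 0.15, adjusted p = 0.533) and Piwil2 at -0.17 (SE 0.12, interval -0.45 to 0.10, adjusted p = 0.553). None of these differences was larger than the spread between libraries allowed the test to call. Pld6 had the narrowest interval, -0.13 to 0.40 around 0.13, which leaves out a fold change of 1.5 in either direction. Gtsf1 had the widest, -1.0 to 0.87 around -0.07, so a fold change of 1.5 either way was not detectable for it with these libraries. The remaining estimates were -0.22 for Piwil4, -0.04 for Mael, 0.08 for Tdrd1, 0.11 for Tdrd5 and 0.01 for Asz1. In bulk RNA fewer cells in a given state and less RNA per cell cannot be told apart, here or in the comparisons that follow.

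Leaving out heterozygous replicate 1 widened the estimates of Tdrd9 and Mov10l1. Without it Tdrd9 was at -0.81 (edgeR adjusted p = 0.0929) and Mov10l1 at -0.48 (adjusted p = 0.0668), and neither was called. With the meiotic index, explained with the second question, as a covariate, Tdrd9 was at -0.08, Mov10l1 at -0.00 and Gtsf1 at 0.65 (edgeR adjusted p = 0.228), and no member was called.

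Against wildtype no member was called either, where 0.0% of genes were called in all and 743 genes were under an unadjusted p of 0.05. Even the targeted gene Taf4b was not called here, although its groups did not overlap (log2 -1.56, edgeR adjusted p = 0.113). The lack of calls among the members is therefore weak evidence of no difference. The median over the members was 0.08 (log2), with 7 higher and 3 lower, against 0.00 over all genes. Tdrd5 was the single member whose deficient and wildtype libraries did not overlap, as 12.6% of all genes did not. Its mean was 122 ± 16.4 CPM (SD) over the 4 deficient libraries against 85.6 ± 33.2 CPM (SD) over the 2 wildtype ones, and the log2 difference was 0.52 (SE 0.23, 95% interval 0.01 to 1.02, unadjusted p = 0.0469, adjusted p = 1.00, edgeR quasi-likelihood test). That difference rested on wildtype replicate 1, and was 0.17 without it. The other estimates ran from -0.25 for Piwil4 to 0.29 for Mael. The same deficient libraries served as the first group against both heterozygous and wildtype libraries, so the 2 comparisons are not independent.

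Set against the equally weighted mean of heterozygous and wildtype, 6 members were higher and 4 lower, from -0.38 to 0.31 (log2), with 0.00492% of genes called in all and a smallest edgeR adjusted p of 0.904 among the members. Between heterozygous and wildtype 6 were higher and 4 lower, from -0.06 to 0.44, with 0.00492% called in all and a smallest edgeR adjusted p of 0.727. No member was called in either comparison, and no alternative setting called a member in any of the 4 genotype comparisons.

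**Figure D3:**
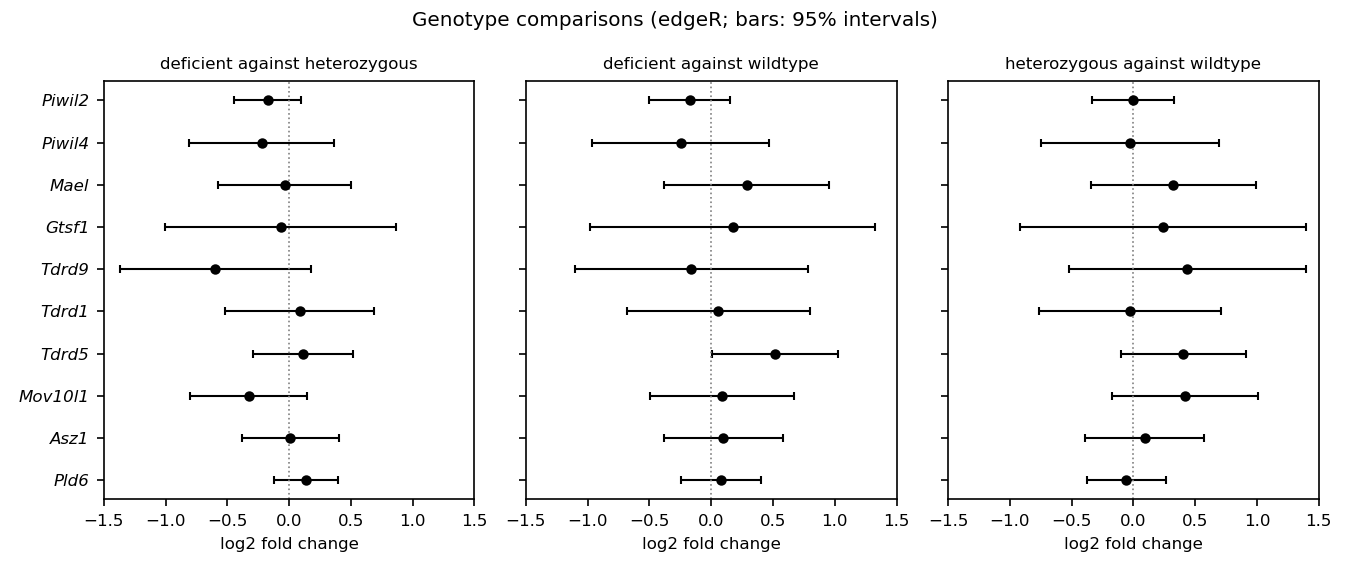
Points are log2 differences for each member between each pair of the 3 genotypes, 1 panel a pair, with bars for 95% intervals from the edgeR fit. Every interval crosses 0 except that of Tdrd5 against wildtype (0.01 to 1.02), whose adjusted p was 1.00.

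The second question was how the genes vary with meiotic stage. Since the labels give no stage, each library was given a meiotic index, the mean log2 CPM of 34 genes of meiotic chromosomes and recombination minus that of 22 pluripotency genes. None of the 10 members, nor any gene of the wider pathway list described further on, is in the index. In replicate order the deficient libraries had an index of 0.17, 1.23, -1.94 and -0.28, the heterozygous ones of -1.91, 2.17, 1.84 and 1.78, and the wildtype ones of -0.03 and 0.35. Deficient replicate 3 and heterozygous replicate 1 stood apart at the low end, and 3 heterozygous libraries lay at the high end. The index is made from the same libraries as the members' values, so a slope on it describes genes that move together and is no independent staging. Pecam1 was highest in the 2 libraries of lowest index, at 373 and 380.4 CPM, and lay between 64.8 and 222 CPM elsewhere, and it fell along the index (slope -0.61, edgeR adjusted p = 9.25e-06). Of the other endothelial markers, Kdr (0.312 to 1.05 CPM, slope -0.0047, edgeR adjusted p = 0.988) and Tek (0.567 to 1.99 CPM, slope -0.17, adjusted p = 0.478) did not pass the test, and Cdh5 and Emcn were too low to test. Of the supporting cell markers, Lhx9 also fell (0.446 to 2.88 CPM, slope -0.45, edgeR adjusted p = 0.032), and the others did not pass the test. The part of Pecam1 or Lhx9 in the members' slopes was not tested.

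With genotype in the model, 6 of the 10 members rose with the index and 0 fell, where 24.7% of all genes were called, 12.9% rising and 11.9% falling. The median slope of the members was 0.23 (log2 per unit of index) against 0.00 over all genes. The 6 were Gtsf1, Tdrd9, Tdrd1, Mael, Mov10l1 and Piwil4.

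Gtsf1 was steepest at 0.50 per unit (SE 0.06, adjusted p = 0.000248, edgeR quasi-likelihood test with Benjamini-Hochberg adjustment, as for each slope), which is 4.15-fold over the index range of 4.11. It was at 12.9 and 6.32 CPM in the 2 libraries of lowest index and at 26.4, 32.1 and 23.0 CPM in the 3 of highest index. Its highest library was deficient replicate 2, at 33.5 CPM, with an index of 1.23, below those 3. Tdrd9 rose by 0.39 per unit (SE 0.05, adjusted p = 0.000528) and Tdrd1 by 0.29 (SE 0.05, adjusted p = 0.00179). Tdrd1 was at 55.0 and 43.4 CPM in the 2 lowest libraries and at 64.3 to 104 CPM in the other 8, where those of middle and of high index overlapped.

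Mael rose by 0.27 per unit (SE 0.03, adjusted p = 0.000252), or 2.16-fold over the range. Its highest library was also deficient replicate 2, at 563 CPM. Mov10l1 rose by 0.23 (SE 0.03, adjusted p = 0.00052) and Piwil4 by 0.23 (SE 0.06, adjusted p = 0.0187). Mov10l1 was highest in the 3 libraries of highest index, at 461 to 545 CPM. The 6 genes that rose thus include the most abundant member, Mael, and the least abundant, Piwil4.

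The other 4 did not pass the test. Piwil2 had a slope of 0.06 (95% interval -0.02 to 0.14, adjusted p = 0.291), Asz1 of 0.05 (-0.08 to 0.18, adjusted p = 0.565), Tdrd5 of 0.02 (-0.12 to 0.16, adjusted p = 0.871) and Pld6 of -0.01 (-0.08 to 0.07, adjusted p = 0.896), all from the edgeR fit. The upper ends of these intervals lie below the slopes of Gtsf1, Tdrd9, Tdrd1, Mael, Mov10l1 and Piwil4, although slopes of different genes were not tested against each other.

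**Figure D4:**
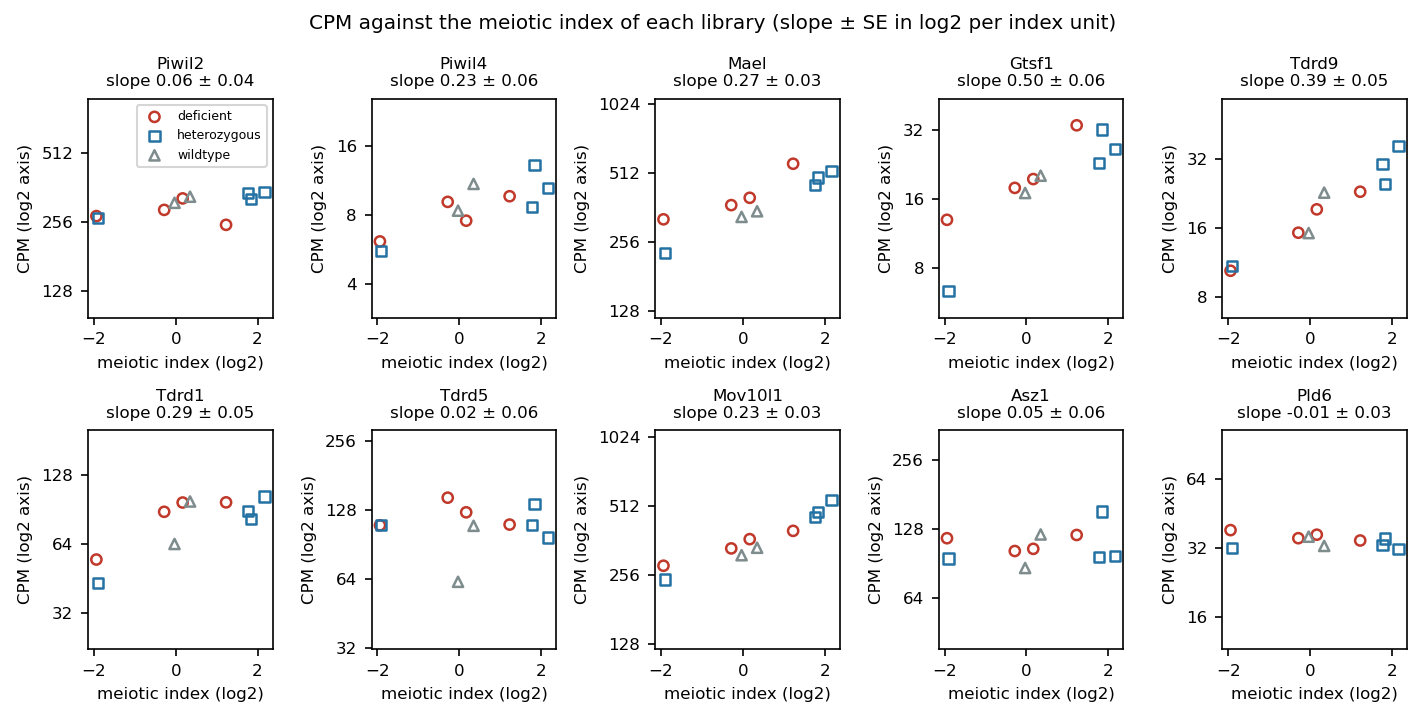
Each panel plots the CPM of 1 gene on a log axis against the meiotic index of the library, with an open symbol for each of the 10 libraries by genotype and the slope ± SE above. Gtsf1, Tdrd9, Mael and Mov10l1 are low in the 2 libraries of index below -1.9 and high in those above 1.7, whereas Piwil2, Tdrd5, Asz1 and Pld6 show no slope that passed the test.

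The slopes rest on few libraries. Without both deficient replicate 3 and heterozygous replicate 1, no member and no gene at all was called in the edgeR fit with genotype, against 5028 genes with all libraries, and 1486 genes were under an unadjusted p of 0.05. The 6 slopes were then still above 0 by estimate, such as 0.57 for Gtsf1 and 0.38 for Mael, with edgeR adjusted p-values from 0.528 to 0.954. Without heterozygous replicate 1 alone 681 genes and 3 members were called, Gtsf1 (adjusted p = 0.0427), Mael (0.0469) and Tdrd9 (just under the threshold of 0.05). Without deficient replicate 3 alone, 3342 genes were called and of the 6 only Piwil4 was lost (edgeR adjusted p = 0.0684).

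A further 3 fits of the slope called 5, 6 and 3 of these members. In the fertile libraries alone, a subset chosen after the data were seen, Gtsf1 rose by 0.55 per unit (edgeR adjusted p = 0.00764) and only Piwil4 was lost (adjusted p = 0.0968), with 2196 genes called in all. There heterozygous replicate 1 had an index of -1.91, the other heterozygous libraries of 1.78 to 2.17, and wildtype of -0.03 and 0.35. With genotype in the model, the slopes of this subset therefore rest mostly on heterozygous replicate 1. With litter date as a term all 6 were called, from 0.25 for Mov10l1 to 0.53 for Gtsf1, among 4087 genes called in all. With no genotype term and without the 2 libraries of lowest index, also chosen after the data were seen, 2626 genes and 3 members were called, Mov10l1, Tdrd9 and Mael, while Tdrd1 had a slope of 0.05 (adjusted p = 0.693). In that fit genotype and index cannot be told apart, since the 3 libraries of highest index are all heterozygous.

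The promoter matches were set beside these slopes, and a link between them was not tested. Of the 5 genes with CACGTG in their window, Mael, Tdrd1, Tdrd9 and Mov10l1 rose with the index and Pld6 was the steadiest gene of the 10. Gtsf1, the steepest, and Piwil4 rose without a match, and Tdrd5 and Asz1 had neither a match nor a slope that passed the test. With so few genes this is a description.

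A wider list held 25 other genes of the pathway, of which 21 could be tested. Spocd1, Dnmt3l, Nanos2 and Gtsf2 were too low, with at most 14 reads in a library. No gene of the list was called in any genotype comparison by edgeR. Between deficient and heterozygous libraries the smallest p-values were those of Pnldc1, which trims piRNA ends, at 0.32 (log2, unadjusted p = 0.0261, edgeR adjusted p = 0.383), and of Gpat2, a mitochondrial membrane protein of piRNA production, at -0.60 (unadjusted p = 0.0478, adjusted p = 0.414). Pnldc1 was at 47.7 to 53.1 CPM in deficient and 37.0 to 47.1 CPM in heterozygous libraries, with no overlap, as for 5.97% of all genes.

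Along the index the wider list moved in both directions, with 11 of 21 rising and 5 falling in the edgeR fit, and a median slope of 0.14, beside 12.9% rising, 11.9% falling and a median of 0.00 over all 20317 genes. Tex15, a nuclear factor of transposon methylation, rose by 0.75 per unit (SE 0.14, adjusted p = 0.00382) and ran from 62.1 to 749 CPM. Btbd18, a regulator of piRNA precursor transcription in the testis, rose by 0.47, Gpat2 by 0.30 and Stk31, a Tudor protein, by 0.26. Of the genes of at least 5 CPM that fell, Morc1, a transposon silencing factor, was at -0.32 (SE 0.05, adjusted p = 0.00138), and Prmt5 and Wdr77, which together methylate arginines of PIWI proteins, were at -0.16 and -0.10. Among the 3 tested genes of nuclear silencing Tex15 thus rose while Morc1 and Dnmt3c fell, Dnmt3c at a level of only 0.572 to 2.07 CPM. All 16 calls share the limit that no gene was called without the 2 libraries of lowest index.

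**Figure D5:**
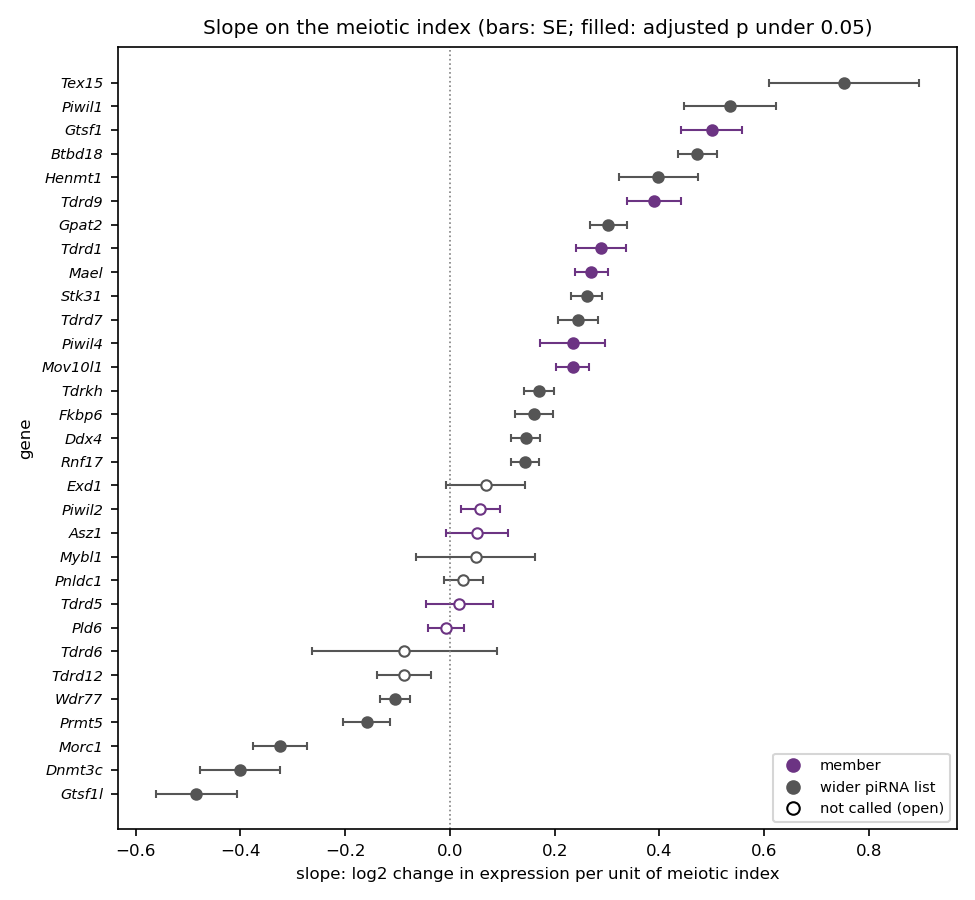
Points are the slopes of log2 CPM per unit of meiotic index for the 10 members and the 21 tested genes of the wider list, with bars for the SE of the edgeR fit and filled points where the adjusted p was under 0.05. Gtsf1 at 0.50 is the steepest member, 6 members are filled and all lie above 0, and Tex15 at 0.75 and Gtsf1l at -0.48 are the ends of the range.

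Correlations of log2 CPM across the 10 libraries are given as a description, since all points share the libraries and their index. Gtsf1 and Mael had a Pearson r of 0.95, and Mov10l1 and Tdrd9 of 0.94, whereas Pld6 and Tdrd9 were at -0.50. Clone names, predicted genes and mitochondrial genes were left out, and among the remaining 10170 genes that averaged 5 CPM or more, those most like each member were Snx19, Sft2d2 and Edrf1 for Piwil2 (r up to 0.95), Mgl2, Syt12 and Adam15 for Piwil4 (0.96), and Rhno1, Ankrd49 and Rad9b for Mael (0.98). For Gtsf1 they were Zfp35, Timm22 and Mrps11 (0.98), for Tdrd1 Rnd2, Acox3 and Zswim3 (0.97), for Tdrd9 Ift80, Vipas39 and Ttc3 (0.98), and for Tdrd5 Ccdc117, Cpox and Igsf11 (0.94). For Mov10l1 they were Zfp994, Ganc and Rapgef6 (0.99), for Asz1 Ankrd26, Sac3d1 and Ccdc32 (0.94), and for Pld6 Cnot9, Klf10 and Tmem104 (0.92). The lowest of these leading values was that of Pld6, the gene with the least variation.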

How the data were processed

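RNA was sequenced from 10 libraries of sorted oocytes. Read counts per gene are the authors' deposited counts from featureCounts (Subread 1.6.2), and TPM values are those the authors deposited, from StringTie 1.3.3b; both are named in the submitters' processing notes, which also name Trim Galore 0.5.0, FastQC 0.11.5, HISAT2 2.1.0, SAMtools 1.9 and the build GRCm38. Whether counting used strand is not given in these sources. A deposited table of DESeq2 results was not used, since its contrast is not stated. All 55536 gene IDs matched GENCODE M21, which gave symbols and positions: Piwil2 chr14:70372477-70429383, Piwil4 chr9:14696230-14740733, Mael chr1:166201201-166238747, Tdrd1 chr19:56826209-56870012, Tdrd5 chr1:156255296-156303664, Tdrd9 chr12:111971559-112068854, Mov10l1 chr15:88982909-89055152, Asz1 chr6:18050964-18109061, Gtsf1 chr15:103402405-103430470 and Pld6 chr11:59783897-59787645.

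Counts were tested with edgeR 4.0.16 in R 4.3.3 (filterByExpr by genotype, TMM scaling, quasi-likelihood F test) in 1 model of 3 genotypes over all 10 libraries, which share 1 estimate of the spread. P-values were adjusted by Benjamini-Hochberg over all 20317 genes tested and called at 0.05. CPM is on the TMM scale, except marker sums, which are scaled to the library total alone, and log2 CPM used a prior count of 2. The slope on the meiotic index had genotype as a covariate. Intervals use the t quantile of the fit's degrees of freedom. The code was tested on simulated counts. No 2 libraries agreed within sampling noise (lowest chi-square per degree of freedom 9.61). Alternatives used DESeq2 1.42.0 and limma 3.58.1 (voom with sample weights, and log2 TPM with pseudocounts 0.1 and 1), other scalings and filters, litter date, left-out libraries and other forms of the index.

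The members and gene lists were chosen with earlier results of these data known. All 10 members are named in every comparison that gives single genes; of the wider list, up to 4 called genes per direction by size with a mean of at least 5 CPM are named, otherwise the 2 with the smallest p. Dnmt3c, and the genes too low to test, are named outside this rule. For likeness, the 3 genes of highest Pearson r with an assigned symbol are named.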

Additional observations from a re-analysis of the deposited data

Results flagged for a closer look

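Groups of 4 libraries were examined for a value far from the others, 24 groups in all, and chance flags about 1 in 20 such groups. Asz1 stood at 152 CPM in heterozygous replicate 3, where the nearest of the other heterozygous libraries was at 97.5 CPM, a gap of 0.952 of the group's range. The meiotic index of heterozygous replicate 1 was -1.91, where the nearest heterozygous library was at 1.78, a gap of 0.903 of the range.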

How the results depend on the processing

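No alternative called a member between genotypes. For deficient against heterozygous, 209 of 240 alternative estimates of the members kept their sign and for deficient against wildtype 230 of 240. Of 280 alternative slopes 248 kept sign and call, 16 lost a call, 1 gained one (Piwil2, without the 3 libraries low in Gm23935) and 15 changed sign. With 1 wildtype library left out, the lone one was assumed to vary like the other groups. The cause of each change below was not tested. The lowest counts of a member in a library were 186 reads for Piwil4 and 217 for Gtsf1, so counting error bears most on these genes.

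Between deficient and heterozygous libraries 3 genes were called, against 6 with DESeq2 size factors, 6 with upper quartile scaling, 14 without a filter, 5 with at least 1 CPM in 2 libraries, 224 with the DESeq2 test, 3012 with voom sample weights, 0 with litter date, 1 and 0 in TPM (pseudocounts 0.1 and 1), 6 with the index as a covariate and 97 without the 3 libraries low in Gm23935. Leaving out single libraries gave 0 to 519, the highest without heterozygous replicate 1. Between deficient and wildtype 0 genes were called (edgeR), against 1 each without a filter, with the DESeq2 test, with voom and with the index as a covariate, and 0 to 1 with single libraries left out. Against the fertile mean 1 gene was called, against 8 with DESeq2, 0 with litter date, 0 without the libraries low in Gm23935 and 0 to 1 with single libraries left out. Between heterozygous and wildtype 1 gene was called, against 268 without a filter, 480 with DESeq2, 1063 with voom, 0 with litter date, 0 and 0 in TPM, 3 with the index, 186 without the libraries low in Gm23935, 147 with only these genotypes fitted and 0 to 0 with single libraries left out.

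Along the index 5028 genes and 6 members were called, against 0 and 0 without the 2 libraries farthest from the median index, 2196 genes in fertile libraries alone, and 2626 genes and 3 members with no genotype term and without those 2 libraries (the last 2 chosen after seeing the data). Leaving out single libraries gave 681 to 5734 genes and 3 to 6 members.

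Deviations from the genotype means of same-numbered deficient and heterozygous libraries had r from -0.42 to 0.38 (4 pairs), too few values to show or exclude a pairing. None of these 4 pairs shared a litter date. With a replicate block 0 genes were called for deficient against heterozygous, 0 against fertile, 0 for heterozygous against wildtype and 1368 along the index, where Piwil4 (edgeR adjusted p = 0.160) and Tdrd1 (adjusted p = 0.0626) were not called. Under the block Gtsf1 against heterozygous was 0.025, and the slopes of Tdrd5 and Pld6 were -0.015 and 0.017.

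Other signs changed among estimates that were not called with all libraries. Against heterozygous, Piwil4 was 0.088 with the index (-0.37 to 0.029 with single libraries left out), Mael 0.015 with upper quartile, 0.018 without a filter and 0.32 with the index (-0.22 to 0.086), and Tdrd1 -0.032 with voom and -0.046 without the libraries low in Gm23935 (-0.075 to 0.26). Asz1 was -0.018 with library totals, -0.0070 with litter date and -0.039 and -0.039 in TPM (-0.048 to 0.25), and Gtsf1 0.092 and 0.083 in TPM and 0.65 with the index (-0.39 to 0.22). Against wildtype, Tdrd1 was -0.013 with litter date and -0.085 without the libraries low in Gm23935 (-0.22 to 0.40), Gtsf1 -0.19 without those libraries (-0.15 to 0.34), and single libraries moved Tdrd9 from -0.42 to 0.16 and Asz1 from -0.12 to 0.36. Slopes changed sign for Piwil2, at -0.16 without the 2 farthest libraries (-0.0096 to 0.093), for Tdrd5, at -0.0061 with voom, -0.00013 with meiotic genes alone, -0.18 without the 2 farthest and -0.013 also without genotype (-0.010 to 0.043), and for Pld6, at 0.014 with library totals, 0.051 and 0.050 in TPM and 0.0090 in fertile libraries (-0.053 to 0.00021).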
